A study of Mus musculus with 4 samples.

Results

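The genes described here are 44 cell cycle genes of the mouse, 19 that cells use for DNA synthesis in S phase and 25 that they use in G2 phase and mitosis. They were chosen by name and all 44 were among the 31053 genes of the count matrix, where they held 540924 UMIs, or 0.394% of all UMIs in the cells kept. A UMI (unique molecular identifier) stands for 1 captured transcript. The question was which cell types of a growing tibia held transcripts of these genes, and in which phase.

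The cells came from the proximal and distal tibia of 1 male mouse at postnatal day 6 (P6), which carried Col10a1Cre, Rosa26-Tdtomato, Irx3 +/Δ and Irx5 +/-, the Irx3/5 heterozygous control. Both tibiae were pooled, and the 4 sequencing entries hold 1 library, so there is no replicate, no test and no wild-type group, and nothing could be compared between genotypes. Cre is driven by Col10a1, a gene of hypertrophic chondrocytes (HCs), so that the tdTomato reporter marks HCs and cells that descend from them.

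Of 14181 barcodes, 8255 were kept as cells, with 2623 to 85279 UMIs and a median of 13957. They were sorted into classes by marker genes after clustering without the 44 genes, and 20 classes of at least 50 cells are described, each called "-like" because the names were rebuilt from markers. A Schwann-like class of 13 cells is left out. In all, 7 clusters with 965 cells (11.7%) stayed unnamed, and 20.4% of those cells were marked as probable doublets, against 5.57% of all cells kept.

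Dividing cells switch these genes on in waves. Before and during S phase they load and fire replication origins with the MCM helicase, make nucleotides and copy DNA, and transcription factors of the E2F family are known to drive many of these genes. In G2 and mitosis the cyclin B and CDK1 kinase, the spindle, the centromere and the cytokinesis machinery take over. The genes are known to be held down in resting cells through the CHR element (cell cycle genes homology region) of their promoters. CCAAT boxes of the promoters were searched as well. In the growth plate, columnar chondrocytes divide and then leave the cycle as they enlarge to HCs, while blood cell precursors divide in the marrow beside them.

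Both promoter patterns could be seen in the sequences themselves. The promoters of 3 S phase genes with an E2F motif, of Cdk1 with both kinds of motif, and of 2 mitotic genes with a CHR are printed because they show the difference between the lists most plainly. Each is the 160 bases before the gene's RefSeq start on GRCm38.p6, 5′ to 3′ on the gene's strand. Mcm5 is at chr8:75109349-75109508 (plus strand), Mcm6 at chr1:128359706-128359865 (minus), Cdc6 at chr11:98907991-98908150 (plus), Cdk1 at chr10:69352913-69353072 (minus), Cdc20 at chr4:118437344-118437503 (minus) and Ccnb1 at chr13:100786487-100786646 (minus). Capitals mark E2F motifs in Mcm5, Mcm6 and Cdc6, CHR motifs in Cdc20 and Ccnb1, and both in Cdk1.
Mcm5: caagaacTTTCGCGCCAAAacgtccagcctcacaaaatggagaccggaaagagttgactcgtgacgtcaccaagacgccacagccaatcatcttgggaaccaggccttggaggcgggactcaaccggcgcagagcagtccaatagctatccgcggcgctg
Mcm6: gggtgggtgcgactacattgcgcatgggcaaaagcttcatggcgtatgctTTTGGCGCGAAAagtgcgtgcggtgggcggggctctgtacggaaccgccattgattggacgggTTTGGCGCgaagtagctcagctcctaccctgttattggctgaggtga
Cdc6: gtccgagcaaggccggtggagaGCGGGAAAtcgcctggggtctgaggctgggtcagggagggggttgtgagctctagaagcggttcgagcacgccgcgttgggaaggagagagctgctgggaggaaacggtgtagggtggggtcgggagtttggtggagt
Cdk1: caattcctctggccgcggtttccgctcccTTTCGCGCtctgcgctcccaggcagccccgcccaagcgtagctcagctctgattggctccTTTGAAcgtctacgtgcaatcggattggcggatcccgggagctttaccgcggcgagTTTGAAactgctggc
Cdc20: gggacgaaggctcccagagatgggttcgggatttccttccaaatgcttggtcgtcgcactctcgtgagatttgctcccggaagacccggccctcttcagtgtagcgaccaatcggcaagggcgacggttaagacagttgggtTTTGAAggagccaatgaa
Ccnb1: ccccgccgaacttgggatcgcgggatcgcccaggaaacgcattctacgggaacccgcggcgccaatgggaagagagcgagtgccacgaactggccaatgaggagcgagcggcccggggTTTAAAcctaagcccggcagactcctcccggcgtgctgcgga

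In Mcm5 the capitals hold a pair of overlapping E2F motifs on opposite strands, which begin 153 and 149 bases before the start. Mcm5 also had a CHR at 221 bases, outside the printed stretch. Mcm6 had the same kind of overlapping pair at 110 and 106 bases and a further copy at 47 bases, and Cdc6 had 1 copy on the reverse strand at 138 bases. Cdc20 had a CHR 18 bases and Ccnb1 a CHR 42 bases before the start. Cdk1, the kinase that drives entry into mitosis, was the only one of the 20 G2/M genes with a window that held an E2F motif, at 131 bases, and it had CHRs at 71 and 15 bases.

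The motifs were searched on both strands of 300-base windows, from 250 bases before to 50 bases after each RefSeq start. E2F was searched as TTTCCCGC, TTTGGCGC, TTTCGCGC or TTTGCCGC, CHR as TTTGAA or its variants TTCGAA and then TTTAAA, and the CCAAT box by its name. A window was found for 37 of the 44 genes, which excludes Mcm4, Gins2, Ccna2, Aurkb, Tpx2, Pbk and Stmn1. An E2F motif stood in 9 of 17 S genes (52.9%), namely Mcm3, Mcm5, Mcm6, Mcm7, Cdc6, Cdt1, Uhrf1, Pclaf and Clspn, and in 1 of 20 G2/M genes (5.0%). Of 9951 genes with at least 10 CPM in a cluster (CPM, UMIs per 1000000 UMIs), 4.56% had one. Both lists thus stood apart in this motif, and the G2/M list was close to the genes at large.

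A CHR stood in 19 of 20 G2/M genes (95%), in 7 of 17 S genes (41.2%) and in 25.1% of the 9951 genes. Nusap1, a spindle-bundling protein, was the G2/M gene without one. CCAAT stood in 18 G2/M genes (90%), in 13 S genes (76.5%) and in 42.5% of the 9951. All 18 G2/M genes with a CCAAT box also had a CHR. That combination stood in 7 of 17 S genes (41.2%) and in 11.6% of the 9951 genes. Tyms, Ung and Nusap1 had none of the 3 motifs in this window. These are matches of letters, and no binding was measured.

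**Figure D1:**
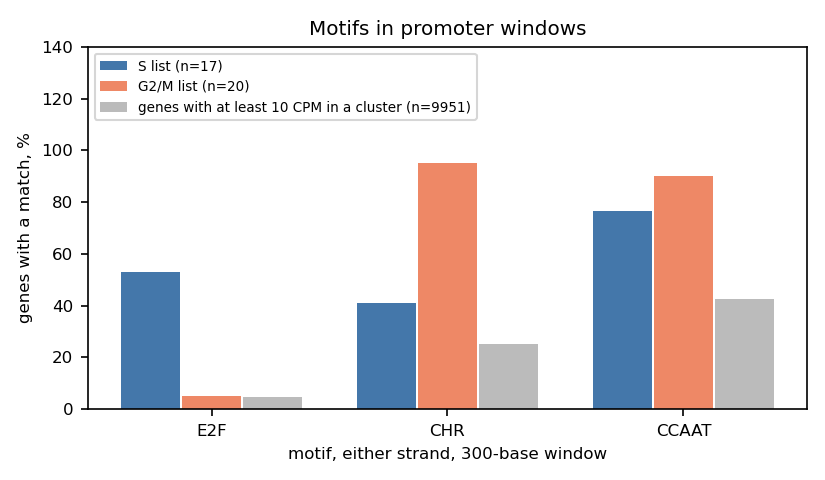
Share of genes (y axis, %) with at least 1 match to each motif (x axis) on either strand of a 300-base promoter window. Blue bars show the 17 S genes, orange bars the 20 G2/M genes and grey bars the 9951 genes with at least 10 CPM in a cluster; E2F is highest in the S genes (52.9%) and CHR in the G2/M genes (95%).

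For the phase calls, each cell was thinned at random to 5000 UMIs, which left out 360 shallower cells, so that a deep cell did not gain calls from its depth. A cell with at least 5 UMIs of the S genes, which is 1000 CPM, was called S, and one with at least 5 UMIs of the G2/M genes was called G2/M. Stmn1, a microtubule regulator that many resting cells also use, was left out of the calls. Cells that passed either or both are named cycling below, which is a range of these counts and not a cell type. Intervals are exact 95% intervals (Clopper-Pearson for shares, Poisson for CPM) and cover counting error only.

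Of 7895 cells, 3896 were cycling (49.3%, interval 48.2 to 50.5). Of these, 655 were S only, 2622 passed both and 619 were G2/M only, and 3999 passed neither. A further 280 cells lay 1 UMI under the limit, and 199 lay on it. The marrow and the skeleton differed widely, with 75.7% (74.1 to 77.3) of 2845 cells of the leukocyte classes, 29.8% (27.2 to 32.4) of 1213 osteogenic cells and 16.8% (15.1 to 18.5) of 1909 chondrogenic cells cycling. The leukocyte group includes 3 unnamed clusters with Ptprc, the pan-leukocyte phosphatase CD45. Without thinning the shares were 78.2%, 50% and 53.3%, so that the chondrogenic share was then above the osteogenic one, and the chondrogenic classes were the deepest of the 3 groups.

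Erythroid cells were at the top. All 455 late erythroid-like cells (Slc4a1 and haemoglobin genes) were cycling (interval 99.2 to 100), 97.6% of them with both gene sets and 0% with S genes alone. Of the early erythroid-like cells (Car1, Ermap), 98% (94.3 to 99.6) were. Promyelocyte-like cells (Elane, Mpo) followed with 97.8% (95.9 to 98.9), and B lineage-like cells with 95.2% (93.2 to 96.8), although 147 of the 735 B lineage-like cells were too shallow to be called. The intervals of these last 3 classes overlapped. Without thinning, 84.8% of B lineage-like cells were cycling, against 98.7% of early erythroid-like and 100% of promyelocyte-like cells.

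Neutrophil myelocyte-like cells (Ngp, Ltf) were lower at 89.6% (86.5 to 92.2). Haematopoietic progenitor-like cells stood at 83.8% (75.8 to 89.9) and basophil or mast cell-like cells at 83.6% (71.2 to 92.2), which do not differ beyond their counting error. Plasmacytoid dendritic cell-like cells were at 77.0% (66.8 to 85.4), osteoclast-like cells at 69.6% (62.4 to 76.2), dendritic cell-like cells at 62.0% (49.7 to 73.2) and macrophage-like cells at 40.4% (33.7 to 47.4). S only calls were most frequent in plasmacytoid dendritic cell-like (24.1%), progenitor-like (20.5%) and promyelocyte-like cells (20.4%).

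These marrow shares hold for the cells with at least 1600 genes. Among barcodes with at least 3 UMIs of Ngp after thinning to 1000 UMIs, 60.7% (57.0 to 64.4) of those kept had both an S and a G2/M UMI, against 4.23% (2.38 to 6.87) of those under the minimum. For Slc4a1 the same shares were 92.6% and 48.9%, and for Cd79a 53.5% and 14.3%. For Col2a1, the collagen of cartilage, they were 13.5% (12.2 to 15.0) and 16.9% (14 to 20.2). With at least 500 genes and thinning to 3000 UMIs, a setting added after seeing the data, late erythroid-like cells were cycling in 61.5%. The minimum of genes thus left out barcodes with these marrow markers that held fewer of the transcripts, and not so those with Col2a1. The 2369 Col2a1 barcodes kept outnumber the 1914 cells of the chondrogenic classes, so they were not cartilage cells alone.

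Within the B lineage the clusters differed. The cluster led by Igkc, Fcrla and Myl4 was cycling in all of the 252 cells that could be called, with 66 further cells too shallow, and in 94.0% of its cells without thinning. The cluster led by Bfsp2, Igll1 and Vpreb1 was cycling in 97.7% of 131. The cluster led by Vpreb1 and Igll1, with Dntt, was cycling in 90.3% of 176 and in 70.3% of its 246 cells without thinning. The cluster led by Iglc1 and Ms4a1 was cycling in 72.4% of 29 and in 56.4% of its 39 cells without thinning. Ms4a1 (CD20), a marker of later B cells, was at 302 CPM (230 to 390) in the 28 B lineage-like cells with neither call and at 38.0 CPM (33.5 to 42.9) in the cycling ones. Il7r, the interleukin 7 receptor of B cell precursors, was at 97.3 and 214 CPM in the same order. Other precursor genes went the other way from Il7r and were higher in the cells with neither call, among them Vpreb1 and Igll1 of the surrogate light chain (1607 against 791 CPM and 947 against 593 CPM), Dntt (169 against 67.3 CPM) and the recombinase gene Rag1 (353 against 210 CPM). Of the 11 B lineage markers 9 were lower in the cycling cells with intervals apart, as were 8.24% of all genes, so that these markers showed no single order of stages.

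In cartilage the share was lower from chondrocyte-like to pre-hypertrophic and hypertrophic cells. It was 18.4% (16.5 to 20.5) in 1467 chondrocyte-like cells, 11.2% (8.15 to 15.0) in 356 pre-hypertrophic chondrocyte-like cells (Ihh, Pth1r) and 11.6% (5.72 to 20.4) in 86 HC-like cells (Col10a1). The last pair do not differ beyond counting error, and the HC-like interval reaches the chondrocyte-like share. In the pre-hypertrophic class 69.6% of the 23 cells with both calls were marked as doublets, against 1.27% of those with neither, and without marked cells the share was 5.46% (3.26 to 8.48). At clustering resolution 0.6 it was 3.65%, and with at most 5% mitochondrial UMIs it was 16.5%. Its 40 cycling cells were lower in all 5 markers of the class, with intervals apart, such as Ihh (51.2 against 186 CPM) and Pth1r (353 against 1364 CPM), where 13.2% of all genes were. Of the hypertrophic markers, they held less Col10a1 (13.2 against 1103 CPM) and more Spp1 (3696 against 563 CPM), and of other genes more Mmp13 (433 against 20.6 CPM).

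The chondrocyte-like class was itself uneven. Its largest cluster, led by Prelp and Gdf10, with Matn1, was cycling in 23.3% (20.5 to 26.3) of 842 cells, and a cluster led by Krt16 and Ucma in 16.2% (12.5 to 20.6) of 345. The cluster led by Penk, with Sfrp5, reached 7.44% (3.46 to 13.7) of 121 and the cluster led by Espn, with Il17b, 5.66% (2.62 to 10.5) of 159. The intervals of the last pair lay wholly under that of the first cluster. Cell cycle genes had been left out when these clusters were formed.

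Among bone-forming cells, 36.2% (32.3 to 40.2) of immature osteoblast-like cells (Mmp13, Tnc) and 31.1% (25.4 to 37.2) of marrow stromal progenitor-like cells (Cxcl12, Adipoq) were cycling. Mature osteoblast or osteocyte-like cells (Bglap, Dmp1) were lower at 18.8% (14.9 to 23.1), with an interval apart from both. Of the marrow stromal cells with both calls, 29.2% were marked as doublets against 0% of those with neither. The class held 9767 CPM of Hba-a1, a haemoglobin gene, against 513 CPM in immature osteoblast-like cells. Without marked cells the stromal share was 26.6% (21.1 to 32.8) and overlapped the mature share of 17.4% (13.6 to 21.7), while the immature osteoblast share was 34.2% (30.2 to 38.3) and stayed apart from the mature one. What doublets add to these shares was not tested further.

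Of the vessel and connective tissue cells, endothelial-like cells were cycling in 36.6% (33.0 to 40.4), pericyte or smooth muscle-like cells in 35.5% (25.8 to 46.1) and fibroblast-like cells in 19.6% (15.0 to 24.8). The pericyte class was the only one of the 20 in which G2/M only calls (15.1%) outnumbered both S only (9.68%) and double calls (10.8%). Its summed G2/M genes were 2.25 times its summed S genes (1755 against 779 CPM, without Stmn1), the highest ratio of the 20 classes. The lowest ratio was that of HC-like cells, 0.641 (312 against 487 CPM).

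**Figure D2:**
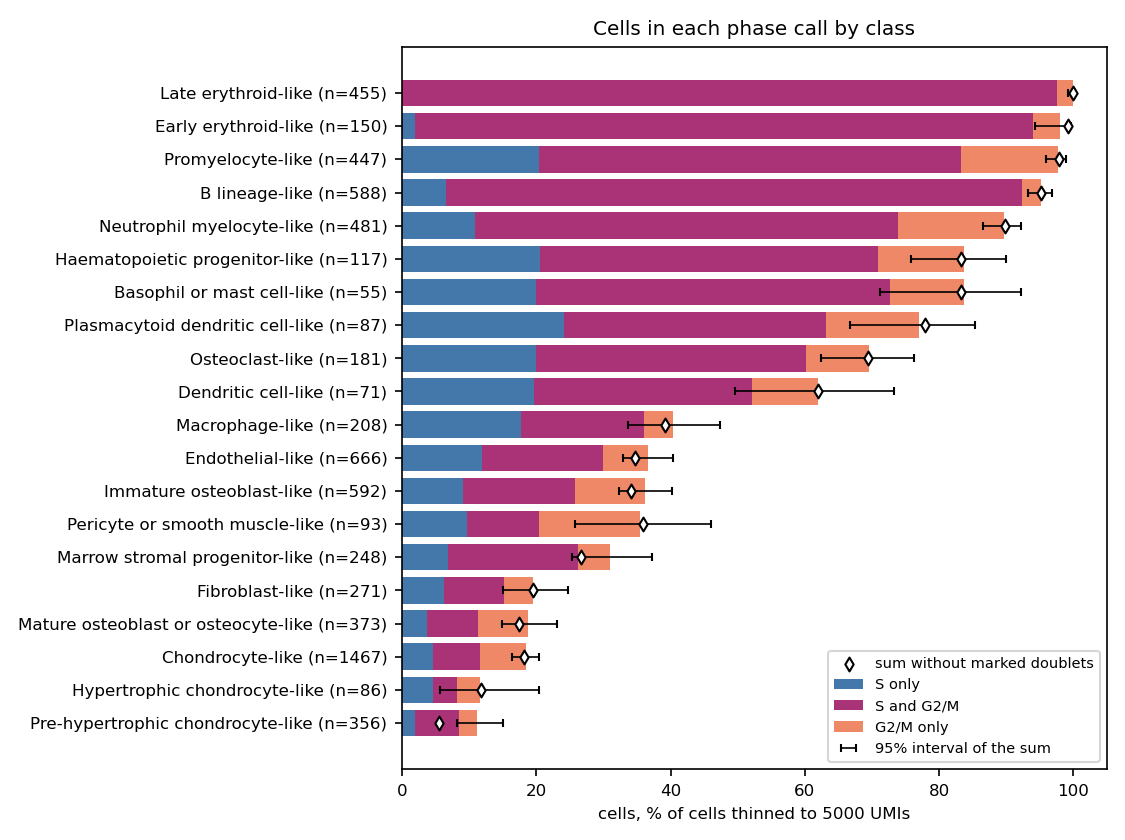
Share of cells thinned to 5000 UMIs (x axis, %) that were S only (blue), S and G2/M (purple) or G2/M only (orange) in each of 20 classes (y axis, with the number of cells). Bars on the total are exact 95% intervals and diamonds are the total without cells marked as doublets; erythroid-like, promyelocyte-like and B lineage-like cells exceed 95% and pre-hypertrophic and HC-like cells are the lowest.

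The members' own levels were taken from all UMIs of a class without thinning. They did not keep the order of the cycling shares throughout. B lineage-like cells had summed S genes of 4962 CPM and summed G2/M genes of 6854 CPM, above the 3572 and 4565 CPM of early erythroid-like cells. Late erythroid-like cells were the class with the highest CPM for 14 of 19 S genes and 16 of 25 G2/M genes, where 5.59% of all 12050 genes had their highest level. B lineage-like cells were highest for 5 S genes and 7 G2/M genes (10.3% of all genes). Lowest levels lay in pre-hypertrophic cells for 12 S and 8 G2/M genes (5.5% of all genes) and in HC-like cells for 3 S and 16 G2/M genes (2.35%). The highest class exceeded the lowest 8.31-fold (Gins2) to 52.1-fold (Cdc6) in the S list, with a median of 21.3-fold, and 10.6-fold (Cdc20) to 61.7-fold (Ube2c) in the G2/M list, with a median of 29.5-fold. With at least 1000 genes per cell, 27 of the 44 genes kept their highest class, and early erythroid-like cells were highest for 16 genes. For 9 genes (Cdc45, Ung, Top2a, Aurkb, Bub1, Plk1, Cenpa, Cenpe and Racgap1) the interval of the highest class overlapped that of the second. Values below are CPM and compare 1 gene between classes, not genes with each other.

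Mcm2 to Mcm7 encode the 6 subunits of the helicase that unwinds DNA at replication forks, and all 6 were highest in late erythroid-like cells. Mcm2 stood at 303 CPM (289 to 317) there, at 167 in B lineage-like, 36.0 in endothelial-like, 19.6 in chondrocyte-like and 12.6 in pre-hypertrophic cells. Mcm7 stood at 514 CPM (496 to 532), 341, 49.3, 30.6 and 24.2 in the same classes. The highest and lowest levels were 372 and 16.8 CPM for Mcm3, 155 and 9.06 for Mcm4, 322 and 13.7 for Mcm5 and 322 and 17.2 for Mcm6. The 6 subunits did not keep 1 ratio in all classes. HC-like cells had 50.7 CPM of Mcm6, above the 27.0 CPM of chondrocyte-like cells, while their Mcm2, Mcm4 and Mcm5 were under the chondrocyte-like level.

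Cdc6 and Cdt1, which load the helicase on origins, were highest in late erythroid-like cells too, at 176 CPM (166 to 187) and 332 CPM (318 to 347), and lowest in pre-hypertrophic cells, at 3.39 and 11.8 CPM. Cdc45 and Gins2, which turn the loaded helicase into an active one, were highest in B lineage-like cells, at 63.9 CPM (58.4 to 69.8) and 76.8 CPM (70.8 to 83.3). For both genes pre-hypertrophic cells were lowest, at 3.66 and 9.24 CPM. Cdc45 in neutrophil myelocyte-like cells, at 58.7 CPM (52.5 to 65.4), overlapped the B lineage-like level, while Gins2 was at 35.5 CPM in late erythroid-like cells.

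The genes of nucleotide supply were also highest in late erythroid-like cells. Rrm2, the regulated subunit of ribonucleotide reductase, reached 1037 CPM (1012 to 1063) in late erythroid-like cells, against 416 (402 to 431) in B lineage-like and 379 in neutrophil myelocyte-like cells, and 25.3 in HC-like cells. Rrm1, the large subunit, was at 409 CPM (394 to 426) in late erythroid-like, 307 in early erythroid-like and 22.3 in pre-hypertrophic cells. Rrm2 but not Rrm1 was higher in neutrophil myelocyte-like than in early erythroid-like cells (379 against 228 CPM for Rrm2, 119 against 307 CPM for Rrm1). Tyms, the thymidylate synthase, ranged from 305 CPM (292 to 319) in late erythroid-like to 15.7 CPM in pre-hypertrophic cells.

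Pcna, the sliding clamp of the DNA polymerases, ranged from 575 CPM (556 to 594) in late erythroid-like to 43.7 CPM in pre-hypertrophic cells. Endothelial-like cells, at 166 CPM, were near promyelocyte-like cells (160 CPM) in Pcna although their cycling share was far lower. Pclaf, a PCNA-binding factor, was highest in B lineage-like cells at 998 CPM (976 to 1020), and Uhrf1, which carries DNA methylation to the new strand, at 371 CPM (357 to 385). Late erythroid-like cells followed at 420 and 338 CPM. Clspn, an adaptor of the replication checkpoint, and Slbp, which binds histone transcripts, were highest in late erythroid-like cells at 227 CPM (215 to 239) and 718 CPM (697 to 739).

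Ung, the uracil-DNA glycosylase, did not follow the cycling share of the classes. Its level was 39.6 CPM (35.3 to 44.3) in B lineage-like and 34.3 CPM in early erythroid-like cells, but 18.8 CPM in late erythroid-like cells. Neutrophil myelocyte-like cells, of which 89.6% were cycling, had the lowest level at 2.87 CPM (1.64 to 4.67), from 16 UMIs. Chondrocyte-like and HC-like cells were above that, at 19.9 and 26.3 CPM.

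Of the G2/M genes, Mki67, which coats mitotic chromosomes, was at 1568 CPM (1537 to 1600) in late erythroid-like cells, 592 CPM in B lineage-like and 31.4 CPM in pre-hypertrophic cells. Top2a, the topoisomerase that untangles DNA, was at 869 CPM (846 to 893) and 849 CPM (828 to 870) in the first pair, whose intervals overlap, and at 32.2 CPM in HC-like cells. The ratio of Mki67 to Top2a therefore differed between classes. Stmn1 was highest in B lineage-like cells at 1537 CPM (1510 to 1565), then in progenitor-like cells at 1048 CPM, and late erythroid-like cells had 621 CPM. Its lowest level was 64.3 CPM, in HC-like cells.

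Cdk1 and its cyclins Ccna2, Ccnb1 and Ccnb2 were all highest in late erythroid-like cells, at 396 CPM (380 to 412), 331 CPM (317 to 345), 218 CPM (206 to 230) and 380 CPM (364 to 395). Their lowest levels were 19.8 CPM and 11.2 CPM in pre-hypertrophic cells for Cdk1 and Ccnb2, and 10.4 and 6.17 CPM in HC-like cells for Ccna2 and Ccnb1. Pericyte or smooth muscle-like cells were above immature osteoblast-like cells in Ccnb1 (55.4 against 30.6 CPM) and Ccnb2 (95.8 against 54.2 CPM) but below them in 5 of 6 MCM genes (16.9 against 32.0 CPM for Mcm2). The pericyte phase calls leaned the same way, but with overlapping intervals. Ube2c, an enzyme that marks cyclins for destruction, was at 1406 CPM (1376 to 1436) in late erythroid-like and 22.8 CPM in pre-hypertrophic cells, the widest range of the 44 genes. Cdc20, which activates the same ligase, had the narrowest range of the G2/M list, from 138 CPM (130 to 147) in B lineage-like to 13 CPM in HC-like cells.

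The mitotic kinases were also highest in marrow classes. Aurka, the spindle pole kinase, ranged from 75.9 CPM (69.2 to 83.1) in late erythroid-like to 3.30 CPM in pre-hypertrophic cells. Aurkb, the kinase of the chromosomal passenger complex, ranged from 135 CPM (127 to 144) in B lineage-like to 3.25 CPM in HC-like cells, from 10 UMIs. Late erythroid-like cells, at 124 CPM (115 to 133), overlapped the B lineage-like level. Plk1, a master kinase of mitosis, was the only gene highest in early erythroid-like cells, at 46.5 CPM (40.8 to 52.8), which overlaps the 36.0 CPM (31.4 to 41.1) of late erythroid-like cells. It had 4 UMIs in HC-like cells (1.30 CPM, interval 0.354 to 3.33). Bub1 and Bub1b, kinases of the spindle checkpoint, were highest in B lineage-like cells at 45.4 CPM (40.8 to 50.4) and 96.8 CPM (90 to 104). Late erythroid-like cells had 38.4 CPM of Bub1 (33.7 to 43.7), which overlaps, and 37.0 CPM of Bub1b, which was lower. Pbk, another mitotic kinase, was also highest in B lineage-like cells, at 96.0 CPM (89.2 to 103), and had 6 UMIs in HC-like cells.

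Birc5 and Cdca8, which sit with Aurkb in the passenger complex, were highest in late erythroid-like cells, at 887 CPM (864 to 911) and 305 CPM (292 to 319), where Aurkb was second. Cenpa, the histone that marks the centromere, was highest in plasmacytoid dendritic cell-like cells at 436 CPM (397 to 478), which overlaps the 430 CPM (415 to 445) of B lineage-like cells. Cenpe and Cenpf, kinetochore proteins, were highest in late erythroid-like cells at 133 CPM (124 to 142) and 240 CPM (228 to 253), the first of which overlaps the 125 CPM (117 to 133) of B lineage-like cells. Of the spindle genes, Tpx2 stood there at 175 CPM (165 to 186), Nusap1 at 400 CPM (384 to 416) and Prc1, which bundles the midzone, at 272 CPM (259 to 286). Racgap1, needed for the cleavage furrow, was level between B lineage-like and late erythroid-like cells at 129 and 127 CPM. Cdca3, which helps trigger entry into mitosis, was at 381 CPM (366 to 397) in late erythroid-like cells.

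**Figure D3:**
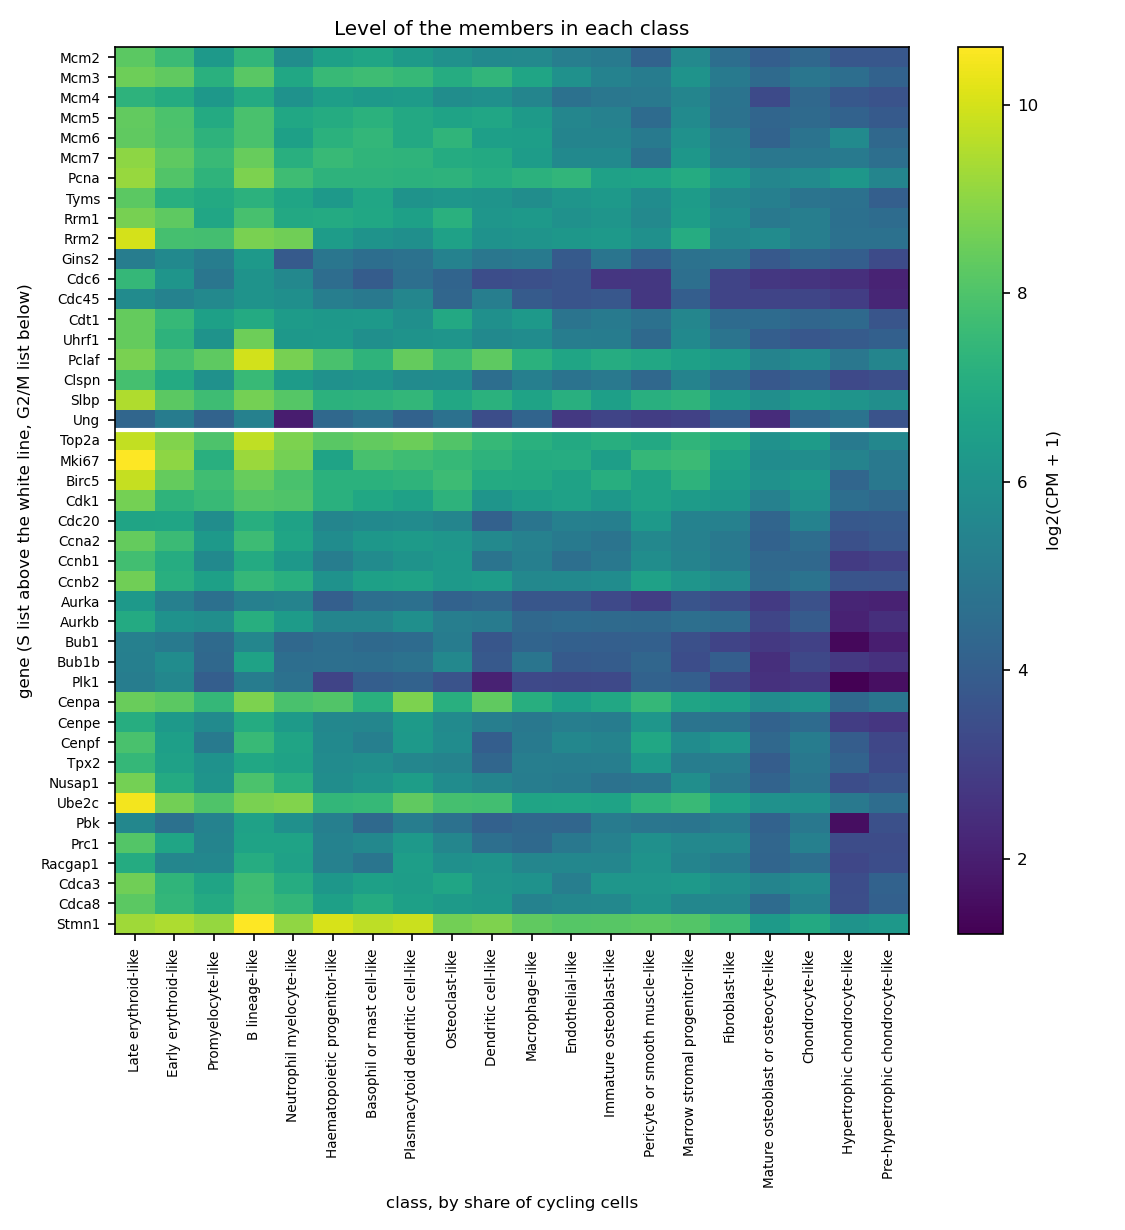
Level of each of the 44 genes (y axis, S list above the white line and G2/M list below) in 20 classes (x axis, ordered by share of cycling cells), as log2(CPM + 1) by colour. Levels are highest in the erythroid-like and B lineage-like columns at the left and lowest in the pre-hypertrophic and HC-like columns at the right.

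To see whether each gene keeps the phase of its list, cells were called from the other members only, so that no gene chose the cells in which it was measured. In chondrogenic, osteogenic and leukocyte classes, 25, 25 and 24 of the 25 G2/M genes were higher in G2/M only than in S only cells, where 51.4%, 44.4% and 43.4% of all genes tested were. Of the 19 S genes, 2, 1 and 1 were. The exception in the G2/M list was Stmn1 in leukocytes, at 496 CPM in S only and 315 CPM in G2/M only cells (log2 ratio −0.65). Pclaf was the S gene that was higher in G2/M only cells in all 3 groups, by 0.05, 0.30 and 0.09 on the log2 scale. Rrm1 was higher by 0.09 in chondrogenic cells. For both S genes the S only and G2/M only intervals overlapped in each of these cases.

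Of the 44 genes, 30 had their highest level in the same phase call in all 3 groups of classes. For 11 of these the interval of the peak was apart from the next level in all 3. Shares over all genes were not computed for these counts, so they cannot be set against the genes at large. Mcm2 and Ung peaked in S only cells in all 3. In chondrogenic cells Mcm2 was at 7.90 CPM with neither call, 86.1 in S only, 83.1 with both and 5.36 in G2/M only cells. Ung was at 13.6, 58.0, 26.2 and 3.57 CPM in the same order. Both were thus no higher in chondrogenic G2/M only cells than in those with neither call, from 3 and 2 UMIs in the G2/M only cells. The same order held in osteogenic cells. In leukocyte classes the levels in G2/M only cells were the higher ones, with overlapping intervals. They were 26.9 against 16.2 CPM for Mcm2 and 5.13 against 2.89 CPM for Ung. Neither peak was apart from the level with both calls in any of the 3 groups.

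Cdc20, Ccnb1, Ccnb2, Cenpa, Cenpe and Cenpf peaked in G2/M only cells in all 3 groups. Cenpa went from 15.7 CPM with neither call and 12.4 in S only to 120 with both and 510 CPM (447 to 578) in G2/M only chondrogenic cells. Cdc20 went from 6.66 and 19.8 to 112 and 295 CPM, and Ccnb1 from 0.252 and 5.06 to 57.4 and 132 CPM. In osteogenic cells Cenpa stood at 20.1, 25.6, 217 and 489 CPM. The peaks of Ccnb2 and Cenpa were apart from the next level in all 3 groups. For Cdc20, Ccnb1 and Cenpf in osteogenic cells, the peak in G2/M only cells overlapped the level with both calls (102 against 83.4 CPM, 93.8 against 84.4 CPM and 135 against 112 CPM), and for Cenpe it did so in all 3 groups (120 against 71.3 CPM in chondrogenic cells).

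The remaining genes peaked mostly in cells with both calls. Pclaf rested at 2.39 CPM in chondrogenic cells with neither call, 64.9 in S only and 67.2 in G2/M only, and reached 450 CPM (398 to 507) with both. Top2a went 6.04, 57.1, 558 and 252 CPM, and Pbk 0.378, 10.0, 208 and 75.0 CPM from neither to S only, both and G2/M only. Both calls need at least 5 UMIs of each list, so a peak there does not by itself place a gene between the lists. The G2/M members were still higher in G2/M only than in S only cells, except Stmn1 in leukocytes. The S members were still higher in S only cells, except Pclaf, and Rrm1 in chondrogenic cells. Cdc6 in leukocytes, for example, was at 28.9 CPM in S only and 2.94 CPM in G2/M only cells. In chondrogenic cells 6 S genes peaked in S only and 12 G2/M genes in G2/M only cells. The counts were 5 and 8 in osteogenic and 4 and 11 in leukocyte classes, and shares over all genes were not computed for them.

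Cells with more of these transcripts were also larger libraries. The median depth before thinning was 19224 UMIs in chondrocyte-like cells with neither call and 29127 with both, 10733 and 15491 UMIs in immature osteoblast-like cells, and 7695 and 13943 UMIs in leukocytes. Doublet marks went the same way, with 1.45% and 14.6% in chondrogenic and 2.35% and 16.6% in osteogenic cells. Their part in the calls was not tested beyond the shares without marked cells.

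**Figure D4:**
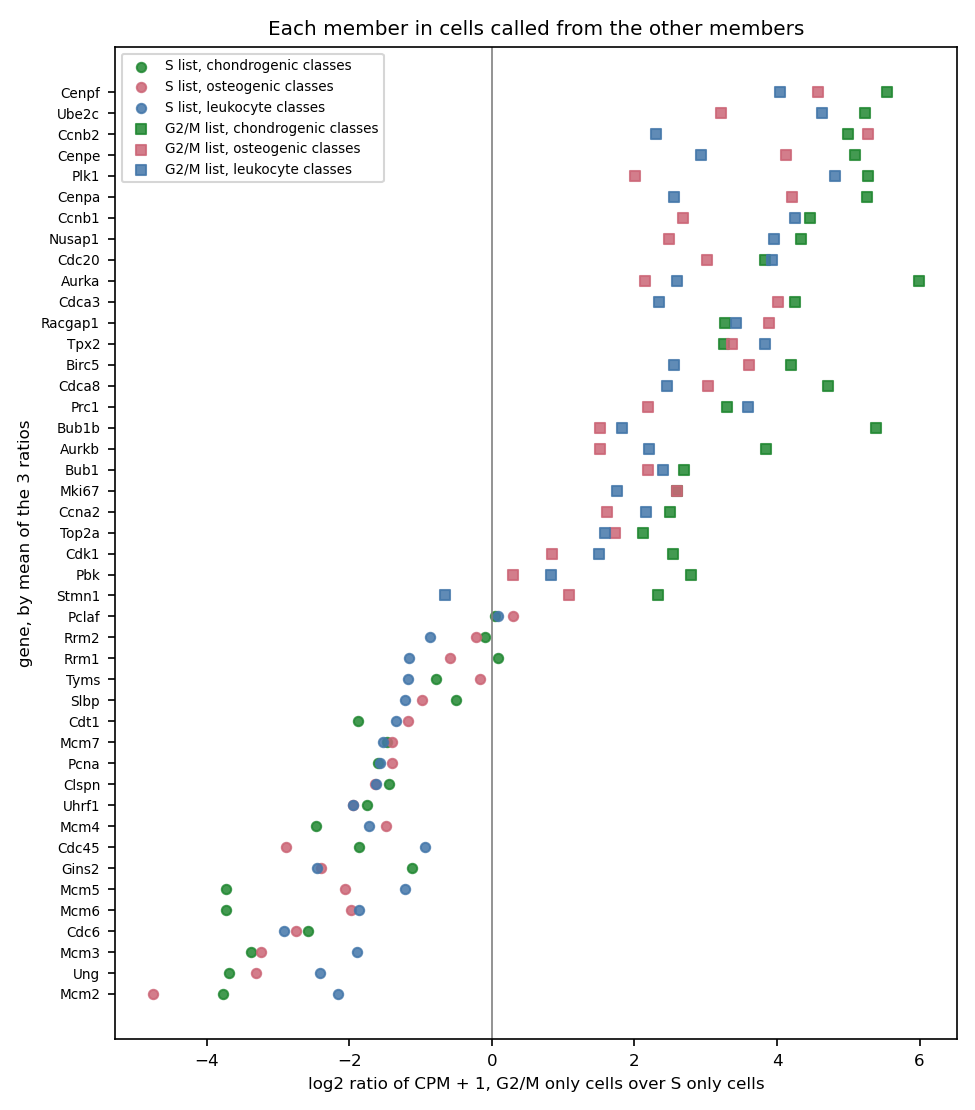
Log2 ratio of CPM + 1 in G2/M only over S only cells (x axis) for each of the 44 genes (y axis), with cells called from the other genes. Circles are S genes, squares G2/M genes and colours the chondrogenic (green), osteogenic (red) and leukocyte (blue) classes; nearly all circles lie left of 0 and nearly all squares right of it. Aurka, Bub1b and Plk1 had 0 UMIs in chondrogenic S only cells, so their green squares depend on the 1 CPM added.

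Other cell cycle genes, which had no part in the calls, followed the same cells. Of 24 further S phase genes, 24 were at least 2-fold higher in cycling than in other chondrogenic cells (median log2 ratio 2.55), and 23 of 23 tested in osteogenic cells (2.34), where 6.74% and 6.47% of all other genes were that much higher. Of 28 further G2/M genes, all 28 were in both (3.65 and 3.47), beside a median of 0.05 and 0.10 over all genes. The largest S ratios were those of Rad51ap1, a recombination factor, E2f8, a repressor of E2F targets, Gmnn, which blocks a further round of origin loading, and Exo1, a DNA exonuclease, at 4.10, 3.93, 3.86 and 3.68 in chondrogenic cells. Hmmr, a spindle protein, had the largest G2/M ratio, 5.41 in chondrogenic and 5.46 in osteogenic cells, followed in chondrogenic cells by the kinetochore genes Nuf2 (4.89) and Spc25 (4.88) and the kinesin Kif11 (4.65).

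The list drawn up for control of the step from G1 to S, which also holds Foxm1, the activator of mitotic genes, was split. At least 2-fold higher were 10 of 16 in chondrogenic and 8 of 16 in osteogenic cells, beside 6.74% and 6.47% of all genes. The largest ratios in chondrogenic cells were those of Foxm1 (3.73), the cyclin E genes Ccne1 (2.89) and Ccne2 (2.72), and Mybl2 (2.68). The cyclin D genes, which couple outside signals to the cycle, differed little, with log2 ratios of 0.24 and 0.08 for Ccnd1, 0.11 and −0.42 for Ccnd2 and 0.27 and 0.42 for Ccnd3 in chondrogenic and osteogenic cells. Myc was at −0.06 and −0.20. Late erythroid-like cells, all cycling, had 473 CPM of Ccnd3 but 1.46 of Ccnd1 and 4.22 of Ccnd2, and 822 CPM of E2f2.

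Of the genes that brake the cycle, 3 of 11 tested in chondrogenic cells (Rbl1, Cdkn2c and Cdkn2d) were at least 2-fold higher in cycling cells (6.74% of all genes). A further 1 was lower (0.948% of all genes). That 1 was Cdkn1c, which encodes the CDK inhibitor p57, at 920 CPM in cycling and 1938 CPM in other cells (log2 ratio −1.07). By class it was at 3994 CPM in pre-hypertrophic cells, 1086 in chondrocyte-like and 306 in HC-like cells, and at 14.4 in late erythroid-like cells. Cdkn1a (p21) was highest of the 3 cartilage classes in HC-like cells at 750 CPM. Its ratio in chondrogenic cells was −0.75, short of 2-fold. In osteogenic cells the same 3 genes of 13 were higher (6.47% of all genes) and Cdkn2b was lower (14.1 against 6.07 CPM, beside 0.797% of all genes).

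Many histone genes are transcribed in S phase. Of 67 histone genes in the matrix, 7 of 14 tested were at least 2-fold higher in chondrogenic and 14 of 17 in osteogenic cells. The shares of all genes that were so were 6.74% and 6.47%. Their transcripts mostly lack the poly(A) tail by which this assay captures RNA. Of all genes outside the 44 with at least 50 CPM, the 10 with the largest ratio in both groups of classes were Hmmr, Hist1h1b, Tk1, Hist1h2ap, Kif11, Smc2, Tacc3, Gmnn, Lockd and Spc24. Of these, Tk1, the thymidine kinase, Smc2, a condensin subunit, Lockd, a noncoding RNA, and Spc24, a kinetochore subunit, were on no list used here. Tk1 went from 1.63 to 67.4 CPM in chondrogenic cells and from 2.47 to 80.1 CPM in osteogenic cells, and Smc2 from 6.63 to 155 CPM and from 13.7 to 195 CPM.

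Within most classes, cycling cells had lower levels of the markers by which the class was named. In the 14 classes with at least 20 cells of each kind, 93 markers of the class's own lists had at least 10 CPM, and 68 were lower in cycling cells with intervals apart, 9 were higher and 16 overlapped. Summed over these classes, 8.66% of all genes were lower and 12.8% higher by that measure. Highly expressed genes reach separate intervals at small differences, and the shares over all genes were not matched for level. All 5 osteoclast markers tested were lower (8.91% of all genes), as were 8 of 9 of mature osteoblast or osteocyte-like (6.46%), 6 of 7 of marrow stromal progenitor-like (12.4%), 5 of 7 of immature osteoblast-like (9.13%) and 7 of 10 of chondrocyte-like cells (15.8%). The median log2 ratio of these markers was −2.06 in osteoclast-like, −0.97 in mature osteoblast or osteocyte-like and −0.78 in marrow stromal progenitor-like cells. It was smaller in immature osteoblast-like (−0.25) and chondrocyte-like cells (−0.17). Neutrophil myelocyte-like cells were even, with 3 lower and 3 higher. Basophil or mast cell-like cells, with 9 cells of neither call, were too few for a count of markers. Their Mcpt8, a basophil protease, was at 1225 CPM in cycling and 9.46 CPM in other cells. The remaining markers of that list are not described, so this gives no direction for the class.

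In osteoclast-like cells Ctsk, the collagen-degrading protease, was at 1225 CPM (1187 to 1263) in 126 cycling and 5125 CPM (5001 to 5252) in 55 other cells, and Ocstamp and Dcstamp, needed for cell fusion, were at 24.3 against 131 and 29.5 against 139 CPM. Of this class 0.553% were marked as doublets. In mature osteoblast or osteocyte-like cells Dmp1 was at 188 against 495 CPM, Phex at 102 against 289 CPM and Bglap at 6351 against 12629 CPM. Mepe was higher (13.9 against 2.28 CPM). In immature osteoblast-like cells some genes of the mature stage were higher, namely Bglap (889 against 775 CPM), Dmp1 (85.3 against 45.2 CPM) and Ifitm5 (100 against 68.6 CPM). The remaining genes of the mature list are not described for this class, so this gives no direction for the list. Mmp13 was lower (2752 against 4107 CPM).

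In chondrocyte-like cells genes of the later cartilage stages were split. Col10a1 was at 11.5 CPM (9.09 to 14.3) in cycling and 41.8 CPM (39.2 to 44.4) in other cells and Pth1r at 178 against 315 CPM, while Spp1 (341 against 212 CPM) and Mmp13 (75.5 against 41.4 CPM) were higher. Matn1, counted above as lower with intervals apart, differed little (2663 against 2787 CPM). In marrow stromal progenitor-like cells Cxcl12 was at 4608 against 9046 CPM and Kitl at 264 against 554 CPM. In pericyte or smooth muscle-like cells the contractile genes Acta2 (2091 against 4466 CPM) and Myh11 (317 against 894 CPM) were lower and Notch3 was not (898 against 720 CPM). These are single-library levels, and fewer transcripts per cell cannot be told apart from a different mix of stages. Doublet marks also differed between cells with both calls and cells with neither. They stood at 29.2% against 0% in marrow stromal progenitor-like and 17.9% against 2.64% in mature osteoblast or osteocyte-like cells. In immature osteoblast-like cells they stood at 10.1% against 3.2%, in chondrocyte-like at 2.9% against 1.5% and in pericyte or smooth muscle-like at 0% against 5%. Their part in the marker levels was not tested.

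The study marks HC descendants by the reporter, and a cell was counted as HC-derived with more than 14 UMIs of WPRE, a sequence downstream of tdTomato in the reporter. That limit was applied to counts before thinning, and HC-derived osteogenic cells were the deeper ones (median 16097 against 12843 UMIs). The part of depth in this split was not tested. Of HC-derived osteogenic cells 28.4% (23.4 to 33.8, 88 of 310) were cycling, and of non-HC-derived ones 30.2% (27.3 to 33.3, 273 of 903). The difference was −1.85 percentage points with a 95% interval of −7.69 to 4.30, so a difference of either sign within that range could not be seen at this number of cells. Thinned to 10000 UMIs, with 275 and 627 cells, it was −8.70 points (−15.1 to −1.94). Without thinning the order was the other way, at 51.8% in HC-derived and 49.4% in non-HC-derived cells. By class the shares were 36.4% and 36.1% in immature osteoblast-like, 34.1% and 30.4% in marrow stromal progenitor-like and 17.1% and 19.6% in mature osteoblast or osteocyte-like cells. HC-derived cells were a larger part of the mature class (123 of 373) than of the stromal class (44 of 254).

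The members' levels were slightly lower in HC-derived osteogenic cells. Of the 44 genes, 39 were lower, where 52.4% of all genes were, and 5 were higher (Cdt1, Ung, Cdc20, Cenpa and Cdca3). In 15 genes the intervals did not overlap, all of them lower, where 12.1% of all genes were lower and 11.6% higher by that measure. The members rise and fall together in the same cells, so these counts do not stand for that many separate observations. The median log2 ratio was −0.31 in the S list and −0.19 in the G2/M list. Mki67 was at 66.9 CPM (60.4 to 73.9) in HC-derived and 103 CPM (97.8 to 109) in other cells, Clspn at 17.7 and 28.5 CPM, and Cenpa at 89.7 and 85.4 CPM. Within immature osteoblast-like cells the summed S genes were at 806 against 973 CPM, and the summed G2/M genes without Stmn1 at 1255 against 1235 CPM, whose intervals overlap. Within mature cells both sums were lower in HC-derived cells (393 against 489 CPM for S and 444 against 714 CPM for G2/M genes). Within stromal cells the S sums overlapped (1235 and 1219 CPM) and the G2/M sum was higher in HC-derived cells, at 1703 CPM (1601 to 1811) against 1533 CPM (1485 to 1581). The direction thus differed between the classes. The unequal mix of classes moves with these values and its part in them was not tested for single genes.

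**Figure D5:**
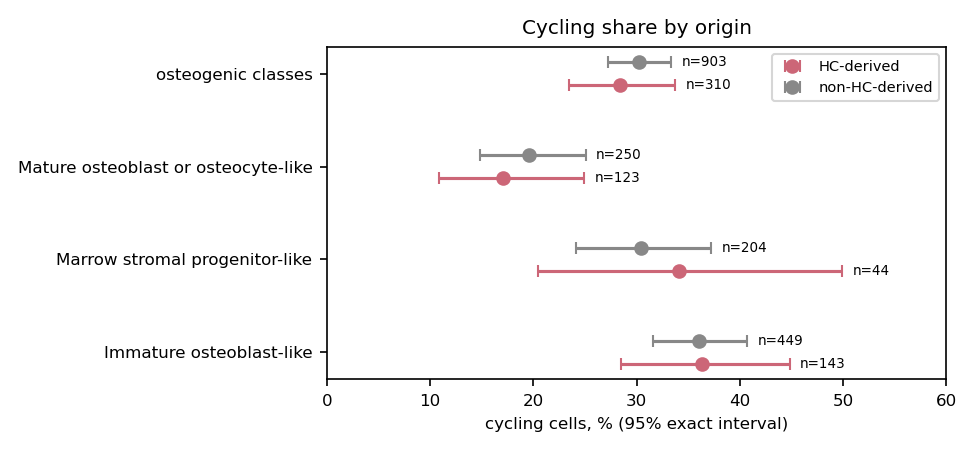
Share of cycling cells (x axis, %) with exact 95% intervals in HC-derived (red) and non-HC-derived (grey) cells of the osteogenic classes together and of each class (y axis), with the number of cells. The intervals of the 2 origins overlap in each of the 4 comparisons, at 28.4% and 30.2% for the osteogenic classes together.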

How the data were processed

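The authors deposited UMI counts per gene and barcode for 1 library (4 sequencing entries, 2 tibiae of 1 mouse), made with Cell Ranger 3.1.0 on mm10 with tdTomato and WPRE added. The submitters' processing notes also name Seurat 3. No source used here gives the annotation release. A second deposited count matrix holds exogenous sequences. No column was left unmapped.

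Cells with at least 1600 genes (the study's minimum), at most 10% mitochondrial and at most 50% ribosomal protein UMIs were kept. Counts were scaled to 10000 and log-transformed, and 2000 variable genes, 30 components, 20 neighbours and Leiden clustering at resolution 1 (seed 1) were used. The 44 genes, the lists of further S and G2/M genes and 67 histone genes were left out of the variable genes. Clusters without a clear leader were clustered again at 0.3. Names came from marker lists by a rule set after the clusters had been seen, and may differ from the study's. A cluster needed at least 3 markers at 10 CPM. Outside cartilage it also needed at least 2 of its own list among its top 10 genes, or 3 among its top 50 with at least 1 in the top 10. Cartilage clusters could be named without such hits. With no hit at all, their name came from the highest mean standardized level of a cartilage marker list. Col2a1, Col1a1 and Ptprc limits stood between cartilage, bone and blood names. Scrublet (expected rate 10%) marked 588 barcodes (4.15%), which were kept and left out in an alternative. Phase calls, intervals, thinning and motifs are described with the results. Log2 ratios had 1 CPM added, and genes entered a comparison from 10 CPM in 1 of its groups. Promoter windows are RefSeq sequences.

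All 44 members are named, further lists by counts with up to 4 examples, and 10 other genes by the largest smaller ratio. The members, lists and rules were chosen with earlier results of these data known. With 1 library no test was run, and cells do not stand for replicate mice. The intervals take cells (for shares) or pooled UMIs (for CPM) as separate units. They leave out the spread between mice, and those for CPM also leave out the spread between cells. Intervals that lie apart are therefore no test of a difference. Markers within classes, clusters and single list genes outside that rule were named, and the minimum of 20 cells for counts of markers was set, after their values were seen. The calling script was tested on simulated data. The tools were matplotlib 3.10.9, pandas 2.3.3, scipy 1.17.1, igraph 0.11.9, anndata 0.12.19, scikit-learn 1.9.0, numpy 2.4.6 and scanpy 1.11.5 under Python 3.11.15.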

Additional observations from a re-analysis of the deposited data

Results flagged for a closer look

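In the matrix of exogenous sequences, 4 UMIs of the Cre sequence (CRE) lay in 4 cells kept, of which 2 were cycling, and 58 UMIs of EGFP lay in 51 cells kept, of which 8 were cycling. Both are above the limit of 3 counts that a count of 0 allows, in data that the comparisons above did not use. The labels of this sample name Col10a1Cre and no EGFP.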

How the results depend on the processing

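With 1 library no replicate could be left out. No paired analysis was possible because all samples belong to 1 group and 1 library. Depth limits the calls of 360 cells under 5000 UMIs. Among recomputed main results 33 moved by more than their interval or limit and 70 did not, and among recomputed class shares 86 did and 243 did not.

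The share of cycling cells (main values 49.3% of all cells, 16.8% of chondrogenic, 29.8% of osteogenic and 75.7% of leukocyte classes) moved with the minimum of member UMIs and with the thinning. With a minimum of 3 it was 59.2%, 26.6%, 43.1% and 82.95% in that order, and with 8 it was 43.5%, 12.99%, 23.3% and 68.8%. With scanpy's phase scores it was 44.01%, 13.3%, 23.4% and 68.9%. Thinning to 3000 UMIs gave 50.9%, 19.5%, 33.1% and 74.0%, and thinning to 10000 gave 52.6% of all, 32.6% of osteogenic and 89.55% of leukocyte cells, with fewer cells deep enough. Cells with at least 500 genes thinned to 3000, chosen after seeing the data, gave 51.04%, 19.1%, 33.6% and 66.2%. At least 1000 genes gave 51.03% of all and 73.1% of leukocyte cells, at least 2000 genes 78.8% of leukocyte cells, and at most 5% mitochondrial UMIs 51.5% of all and 33.9% of osteogenic cells. Leaving genes correlated with the members out of clustering gave 18.8% of chondrogenic cells. The order of the 3 groups was the same in each of these settings. Without thinning it was not, since 65.7% of all, 53.3% of chondrogenic, 50% of osteogenic and 78.2% of leukocyte cells were then cycling.

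Thinned to 10000 UMIs, the HC-derived share of cycling osteogenic cells less the other was −8.70 points (−15.1 to −1.94), with an interval under 0. Its other recomputed values ran from −7.51 to 0.623 points, all with intervals that include 0. Calls without thinning were not among these, and they gave 51.8% in HC-derived and 49.4% in other cells. With at least 1000 genes, 27 of 44 members had their highest class as before, and early erythroid-like cells were highest for 16. On the forward strand alone, CCAAT stood in 47.1% of S and 65.0% of G2/M genes, beside 24.8% of the 9951 genes. Single classes moved further. Late erythroid-like cells were at 61.5% with at least 500 genes and thinning to 3000 together, and pre-hypertrophic cells at 3.65% at resolution 0.6. The causes were not tested.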

Other observations

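The clusters without a name differed as well. The largest, led by Il1b, Cd14 and Cxcl2, was cycling in 49.2% of 415 cells. A cluster led by Tnf and Ccl3 was cycling in 25.7% of 175 cells and in 12.0% of those not marked as doublets. A cluster led by Retnlg and Prg2 held 32638 CPM of Col2a1, was marked as doublets in 82.5% of its cells and was cycling in 38.1%. Of its 22 cells not marked, 9.09% (1.12 to 29.2) were cycling. A cluster led by haemoglobin genes held 33944 CPM of Col2a1, was marked in 49.4% and was cycling in 69.9%. Of its 42 cells not marked, 50% (34.2 to 65.8) were cycling.

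In neutrophil myelocyte-like cells, Camp, a granule peptide, was higher in cycling cells (52942 against 42946 CPM), as was Cebpe, the factor that drives granule genes (631 against 451 CPM), while Ltf, lactoferrin, was lower (6327 against 9255 CPM). In dendritic cell-like cells H2-Aa, a class II antigen presentation gene, was lower in cycling cells (2081 against 5008 CPM), and in plasmacytoid dendritic cell-like cells Siglech was (528 against 1187 CPM).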
